A study of Mus musculus with 16 samples.

Results

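Wild-type male C57BL/6 mice, labelled as aged 10 weeks, made up both groups of this series, and 1 retina per mouse gave 1 RNA-seq library. The study's methods give this age for the mice that were flown, whose eyes were taken after the flight. The 8 mice of the spaceflight group lived on the International Space Station for 35 days, and the 8 ground control mice were kept on Earth in the same housing hardware on the same food. Eyes were taken 38 h (± 4 h) after splashdown, so the spaceflight group combines flight, landing and that interval. The 10 genes described here are those of neurofilament subunits and markers of retinal ganglion cells (RGCs). They were chosen by symbol from the authors' deposited table of 25905 genes, in which all 10 were found.

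RGCs are the output neurons of the retina. Their cell bodies line its inner surface and their axons leave the eye as the optic nerve. Transcription factors of the Pou4f (Brn3) family specify and maintain them, neurofilaments fill and widen their axons, and they release glutamate onto their targets in the brain. The retina is mostly rods by cell number, so RGC transcripts are a small part of whole-retina RNA. In whole tissue, fewer RGCs and less RNA per RGC cannot be told apart. The part of each gene's RNA that came from RGCs was not measured.

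The question the series was built for, whether spaceflight retinas differ from ground controls, is not answered here for these genes. The 16 columns of counts per library carry laboratory codes that match no title or group in the labels used here, and the remaining columns of the gene table hold the authors' own comparison. Neither was used. What is left is the authors' mean normalized count of each gene, which is 1 value over all 16 libraries of both groups. It has no SD and no value per mouse, so the spread between mice is not analysed here and no difference between genes could be set against it. Ratios between named genes and the order of the members are given per kilobase (kb) of transcript, since longer transcripts yield more reads. The percent of genes that lie lower, the shares of all counts and the results by number of transcripts or by shared sequence use the mean without scaling by length.

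The 10 genes together held a mean normalized count of 10317, which was 0.147% of the sum over all genes. Their levels per kb ran from 2.17 for Rbpms to 997 for Thy1. Of the 10 genes, 9 had a mean normalized count of at least 10, and the exception was Rbpms. The median member was above 88.9% of the 19667 genes with a level above 0. With each gene's shortest coding transcript as the length, Rbpms (12.1 per kb) lay above Pou4f3 (6.16 per kb), and with the coding length Sncg lay just above Nefl. The shortest Rbpms transcript has 459 bases, fewer than its 660 coding bases and than each of the 3 transcripts counted. With the coding length or that of the counted transcript, Pou4f3 lay above Rbpms. Whether neighbours in this order differ beyond the spread between mice was not tested.

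**Figure D1:**
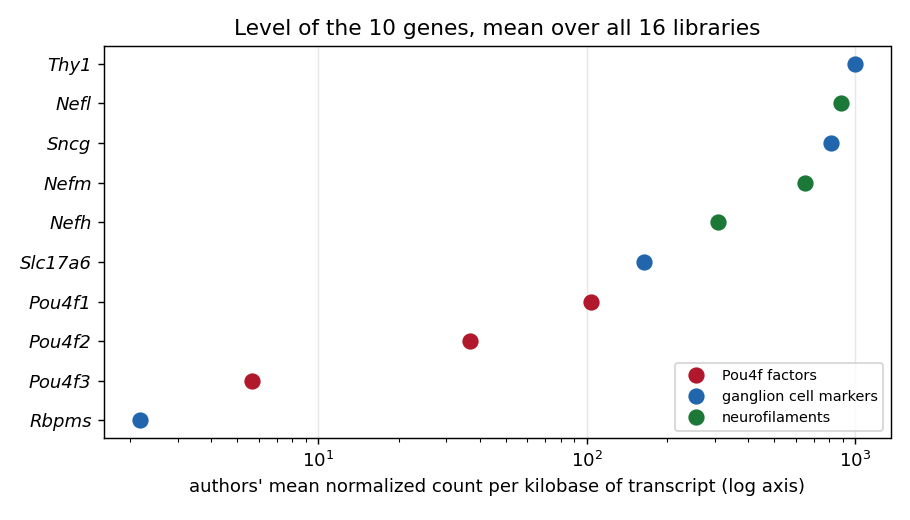
The horizontal log axis gives the authors' mean normalized count per kb of transcript for each of the 10 genes, and colours mark the Pou4f factors, the ganglion cell markers and the neurofilaments. Each point is 1 mean over all 16 libraries, without an error. Thy1, Nefl and Sncg lie between 814 and 997, and Pou4f3 and Rbpms lie under 10.

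Nefl, Nefm and Nefh form the neurofilament triplet. Nefl encodes the light subunit, on which the others assemble, and had a mean normalized count of 2999, above 98.5% of the genes with a level above 0. Nefm, the medium subunit, had 2384 (above 97.9%) and Nefh, the heavy subunit of large mature axons, had 1236 (above 94.6%). Per kb the levels were 887 for Nefl, 648 for Nefm and 309.6 for Nefh. The order light, medium, heavy held under each of the 4 transcript lengths tried, although the sizes of the steps did not. Nefl was 1.37 times Nefm and 2.87 times Nefh with the longest annotated transcript as the length, and 1.96 and 4.87 times with the coding length. With the length of the counted transcript, chosen after seeing the data, Nefm had 715 per kb. Nefl was then 1.24 times Nefm and 2.87 times Nefh. Nefl and Nefm are neighbours on mouse chromosome 14, while Nefh is on chromosome 11.

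Other intermediate filaments were set beside the triplet. Ina, the alpha-internexin that co-assembles with neurofilaments in central neurons, had a level per kb of 202, and Nefl was 4.39 times as high. Vim, the vimentin of Müller glia, had 469.6 per kb, between Nefm and Nefh. Gfap, the filament of astrocytes and reactive glia, had 19.7 per kb. Prph, the peripherin filament of a few RGCs and of peripheral neurons, was listed at 0. Prph and Gfap were counted under 3 and 2 transcripts, a point taken up below with Rbpms. Among the remaining axonal genes of the fixed list, Map1b (microtubule-associated, under its older symbol Mtap1b) had 1924 per kb, Tubb3 (neuronal beta-tubulin) 279 and Kif5a (a motor that moves neurofilaments) 225. Of the 10 genes in that list, 7 had a mean normalized count of at least 10.

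How far reads of the 3 subunits could be told apart was read from their transcripts in GENCODE M21 (assembly GRCm38), since the reads were 75 bases long. The longest run of bases shared by any pair of the triplet was 23 (Nefm and Nefh), and 0 of their 75-base windows lay within 2 mismatches of one another. Nefh is the exception within itself. Its tail region is made of short repeats, and 94 of its 3920 windows (2.40%) occurred more than once in its own transcript, against 0 in Nefl and 0 in Nefm. The longest run that occurred at 2 positions was 121 bases, longer than a read, and it is printed here because a read inside it has no unique place. Its first copy lies in exon 4 of 4, wholly coding, at chr11:4940751-4940871 on the minus strand (GRCm38), and its second copy at chr11:4940589-4940709. In capitals is AGGCCAAATCTCCAGCTG, an 18-letter unit found 9 times in the Nefh transcript and 3 times in this run. In Nefl and Nefm no 18-letter stretch occurred more than 1 time.
Nefh, transcript positions 1877 to 1997: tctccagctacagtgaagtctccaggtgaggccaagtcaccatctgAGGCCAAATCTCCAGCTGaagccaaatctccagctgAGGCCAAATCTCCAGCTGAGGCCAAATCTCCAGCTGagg

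A longer annotated Nefm transcript runs across the Nefl gene on the opposite strand, and 1034 of the 3306 Nefl windows (31.3%) lie in it as their reverse complement. The authors counted Nefm under a transcript that does not include this stretch. The kit kept strand information, and the strand setting of the counting is not given in the sources used here.

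Among the surface, cytoplasmic and vesicular markers, Slc17a6 was lower than Thy1 and Sncg under each transcript length tried. Thy1 encodes a lipid-anchored surface glycoprotein long used to mark RGCs, and its mean normalized count was 1729.5 (above 96.7% of genes). Sncg encodes gamma-synuclein, a presynaptic and axonal protein, and had 693 (above 89.1%). Slc17a6 encodes the vesicular glutamate transporter of RGCs and had 676 (above 88.8%). Per kb the levels were 997 for Thy1, 814 for Sncg and 163 for Slc17a6. Of these 3, Thy1 moved most with the length, with 3559 per kb of coding length (Nefl 1841) and 3878 per kb of its shortest transcript (Nefl 887). That Thy1 transcript has 446 bases, fewer than the 486 of its coding length. Sncg and Slc17a6 thus had nearly equal means, but the Sncg transcript is 852 bases long and that of Slc17a6 4137 bases, and per kb Sncg was 4.98 times Slc17a6.

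The vesicular glutamate transporters differ by cell type. Slc17a7, the transporter of photoreceptors and bipolar cells, had a mean normalized count of 12273 and a level per kb of 4210.3, which was 25.8 times that of Slc17a6. Slc17a8, used by a small class of amacrine cells, had 40.4 per kb, and Slc17a6 was 4.04 times as high, or 1.69 times with the shortest transcripts as the length. The order of the 3 transporters was the same under each transcript length tried.

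The Pou4f factors formed a descending series. Pou4f1 had a mean normalized count of 461 (above 83.7% of genes), Pou4f2 of 118 (above 62.4%) and Pou4f3 of 13.4 (above 39.7%). Per kb these were 104, 36.8 and 5.67, so that Pou4f1 was 2.82 times Pou4f2 and Pou4f2 6.49 times Pou4f3. Pou4f1 and Pou4f2 are each present in most RGC types, and Pou4f3 in fewer of them. The order of the 3 was the same under each transcript length tried. Pou4f3 rests on the fewest reads.

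The factors share a DNA-binding region, and reads from the stretch of greatest identity are the hardest to place. Pou4f1 and Pou4f2 share an unbroken run of 71 bases, 4 short of the read length, in the coding part of their second exons. Pou4f1 and Pou4f3 share at most 41 bases, and Pou4f2 and Pou4f3 at most 35. None of the windows of these 3 genes recurred exactly in another gene, and 21 windows of Pou4f1 (0.480%) and 21 of Pou4f2 (0.671%) lay within 2 mismatches of the other. The shared run is printed in capitals with 15 flanking bases on each side, at chr14:104466039-104466139 for Pou4f1 and chr8:78435047-78435147 for Pou4f2, both on the minus strand of GRCm38.
Pou4f1, transcript positions 1122 to 1222: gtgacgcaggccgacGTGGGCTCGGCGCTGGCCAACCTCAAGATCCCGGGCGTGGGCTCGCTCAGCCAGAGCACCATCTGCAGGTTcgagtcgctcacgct
Pou4f2, transcript positions 1067 to 1167: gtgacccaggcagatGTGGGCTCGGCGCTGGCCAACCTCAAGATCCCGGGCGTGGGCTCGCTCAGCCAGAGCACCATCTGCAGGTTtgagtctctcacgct

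Rbpms stood apart from the other 9 genes. It encodes an RNA-binding protein found in nearly all RGCs of the rodent retina, yet its mean normalized count was 5.53, above 32.1% of the genes with a level above 0. Its level per kb was 2.17, and that of Sncg was 375 times as high, or 224 times with the coding length and 67.5 times with the shortest transcript (459 bases) as the length. Rbpms was also the only 1 of the 10 that the authors' count table lists under more than 1 transcript. It has 3 rows (NM_001042674.1, NM_001042675.1 and NM_019733.2), whereas each of the other 9 genes has 1. How the authors combined several rows of a gene into the 1 row of the gene table is not given in the sources used here.

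The 3 Rbpms transcripts overlap for most of their length. Of 2813 distinct 75-base windows in them, 517 (18.4%) lay in only 1 of the 3, and the remaining windows occurred in at least 2. They share their first 6 exons, apart from where exon 1 begins, and NM_001042675.1 parts from the others at exon 7, the last coding exon of each. The branch is printed with the end of the shared exon 6 (chr8:33806717-33806746, minus strand, GRCm38) in lower case and the first 30 bases of exon 7 in capitals, which lie at chr8:33795121-33795150 in NM_001042674.1 and at chr8:33804153-33804182 in NM_001042675.1. All bases shown are coding.
Rbpms NM_001042674.1: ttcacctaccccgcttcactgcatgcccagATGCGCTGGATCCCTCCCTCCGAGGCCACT
Rbpms NM_001042675.1: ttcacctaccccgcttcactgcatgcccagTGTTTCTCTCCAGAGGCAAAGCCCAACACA

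The number of transcripts under which a gene was counted went with its level over the whole table. The 22086 genes counted under 1 transcript had a median mean normalized count of 12.9, and 51.7% of them were at 10 or more. The 3794 genes counted under 2 or more had a median of 0.806, and 24.6% were at 10 or more. For the 683 genes with 3 transcripts, as Rbpms has, the median was 1.58. Rbpms lay above this median, and the other 9 genes lay above that of genes with 1 transcript, Pou4f3 by a small margin. Among genes with a curated coding transcript, which all 10 are, the median with 1 transcript was 52.2, and Pou4f3 (13.4) lay below it. Genes with more annotated transcripts may differ from the rest in other ways, and the part of counting in the level of Rbpms was not tested.

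**Figure D2:**
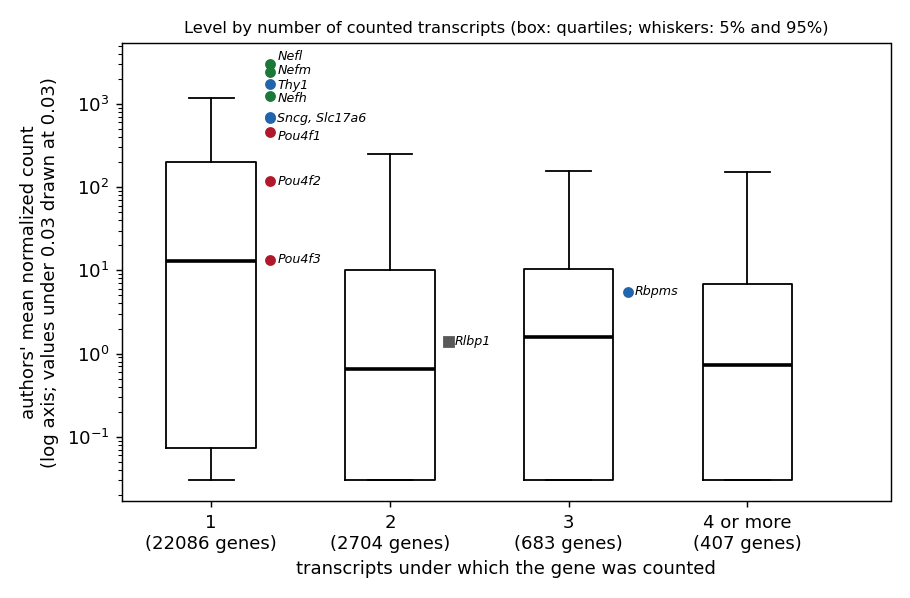
Boxes give the authors' mean normalized count (log axis) of all genes by the number of transcripts under which they were counted, with the quartiles as box, the median as line and the 5% and 95% points as whiskers. Points are the 10 genes of this report and Rlbp1. Medians are 12.9 for 1 transcript, 0.652 for 2, 1.58 for 3 and 0.736 for 4 or more, and Rbpms is the 1 member outside the first class.

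Among genes counted under several curated transcripts, the level also went with how much sequence sets the transcripts apart. All transcripts could be paired with GENCODE for 2811 of 2986 such genes (94.1%). In the 424 genes with under 5% of windows in a single transcript the median mean normalized count was 0.109. It was 1.34 in the 760 genes with 10 to 25%, the interval of Rbpms, and 16.6 in the 669 genes with 50% or more. This is a description across genes, which share the libraries and are not independent.

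**Figure D3:**
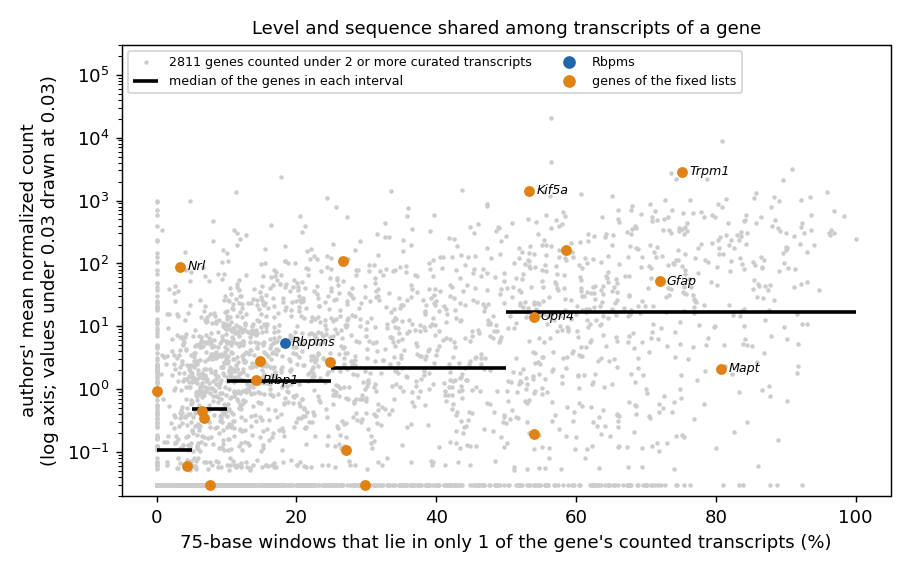
Each grey point is 1 of 2811 genes counted under 2 or more curated transcripts, with the percent of its 75-base windows that lie in only 1 of them on the horizontal axis and the authors' mean normalized count on the log vertical axis. Black bars are medians by interval and go up from 0.109 to 16.6, with Rbpms in blue at 18.4% and 5.53.

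A wider list of 22 other genes of RGCs was examined in the same way, and 21 were found in the table. Of these, 15 had a mean normalized count of at least 10. Uchl1 (a neuronal ubiquitin hydrolase) was highest per kb with 831, followed by Stmn2 (a microtubule regulator of axons) and Tubb3 with 279 each, Elavl3 (a neuronal RNA-binding protein) with 238 and Nrn1 (neuritin) with 224. These are expressed by other neurons as well. Isl1, a partner of Pou4f2 that amacrine and bipolar cells also use, had 162 per kb and Isl2, a factor of a subset of RGCs, 30.7. Opn4, the melanopsin of light-sensitive RGCs, was counted under 2 transcripts and had a mean normalized count of 14.3. In this list too the median level was lower for genes counted under more than 1 transcript, and the part of counting was not tested. Its 15 genes counted under 1 transcript had a median mean normalized count of 398, and its 6 genes counted under 2 or more a median of 1.47. Eomes, a factor of intrinsically photosensitive RGCs, was listed at 0 and was among these 6.

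Genes known to rise in injured RGCs had a median level per kb of 13.5. Of 8 such genes, each counted under 1 transcript, 5 had a mean normalized count of at least 10. Ddit3 had 343 per kb, Gadd45a 177 and Jun 120, all of which other cell types express too. Atf3, a factor induced by axon damage, had 20.3 per kb, Sox11 5.39 and Sprr1a 0.587. As these are means over both groups, they say nothing of a difference between them.

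The tissue was checked against markers of the other cells it could hold. Rods dominated, with 6.00% of all counts in 7 genes. The median level per kb was 3713 in the rod list, 1114 in Müller glia, 403 in bipolar cells and 238 in amacrine cells, against 236.5 for the 10 genes described here. Amacrine cells are displaced into the ganglion cell layer, and their Gad1 had 719.9 per kb, between Nefl and Nefm. The lists of horizontal cells, astrocytes and endothelium had medians per kb of 18.3, 19.7 and 19.7. The astrocyte median is the level of Gfap, counted under 2 transcripts, and the endothelium list holds Pecam1, also counted under 2. The list of myelin genes, made by oligodendrocytes of the optic nerve, had a median of 0.783. Of its 6 genes, 3 were counted under 2 or more transcripts, with a median mean normalized count of 0.949. The 3 counted under 1 transcript had a median of 2.83. The part of counting in these medians was not tested. Mbp, a major protein of compact myelin, was counted under 8 transcripts and had 33.9 per kb. Mog, on the outer surface of myelin, was counted under 1 and was at a mean normalized count of 0.0699. The pigment epithelium list had a median of 46.4 per kb and the lens list, with Cryaa at 709, one of 335. Retinal cells also express crystallins, and the source of this RNA was not tested. Whether these amounts differed between the groups was not tested.

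**Figure D4:**
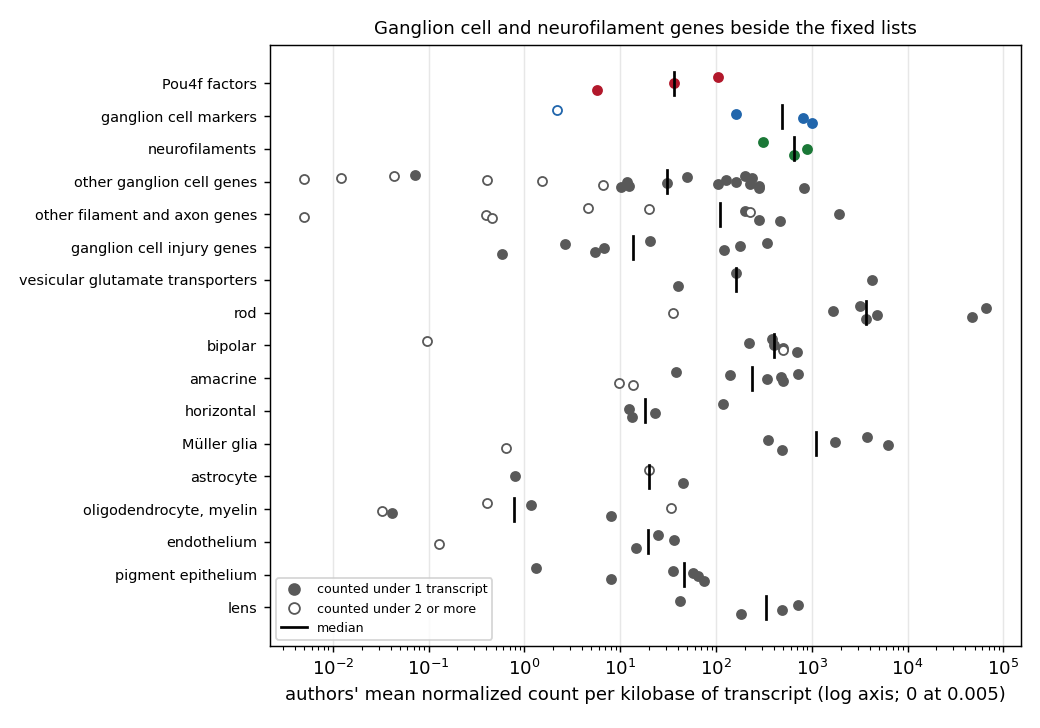
Each point is 1 gene, placed by the authors' mean normalized count per kb of transcript (log axis), in rows for the Pou4f factors, ganglion cell markers and neurofilaments (coloured) and for the fixed lists (grey). Open circles are genes counted under 2 or more transcripts, and black ticks are medians. The neurofilament median of 648 lies below the rod median of 3713 and above the myelin median of 0.783, and most points under 1 are open.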

How the data were processed

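Per the labels and the study's methods, stranded libraries were made from 100 ng of total RNA, sequenced as single 75-base reads, trimmed with Trimmomatic, mapped with TopHat2 to an NCBI mouse build older than GRCm38, counted with HTSeq and compared with DESeq2 1.22.2 in R 3.5.1. The deposited signal value is the authors' mean over all libraries of counts divided by size factors, and it was used as given. The 32 columns of counts per library, in 2 tables, match no label and were not used, so the depth per library is not analysed here. Their transcript identifiers and gene symbols were read from 1 of these tables. The 5 columns of the authors' comparison (fold change, its error, statistic and p-values) were not used. The edgeR and DESeq2 tests intended for the counts, and the naming of genes alike across libraries, were therefore not run.

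Levels per kilobase used the longest coding transcript of GENCODE M21 (GRCm38), joined by symbol. Sequences and positions are from GRCm38 alone. Windows were compared letter by letter, and the window counts were tested on simulated data. Of 106 fixed genes 104 were found, 5 by an older RefSeq symbol. A further 25 symbols of the table had become dates in a spreadsheet. All 10 members are named, and of each other list up to 5 of the highest per kilobase. Isl1, Isl2, Opn4, Eomes, Prph, Gfap, Sox11, Sprr1a, Mog and the low genes of the closing section were singled out after their values were seen. Members and lists were chosen with earlier results of these data known. Scripts ran under Python 3.11.15 with pandas 2.3.3 and numpy 2.4.6, and plots were drawn with matplotlib 3.10.9. Results for some genes are not reported here.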

Additional observations from a re-analysis of the deposited data

How the results depend on the processing

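No paired analysis was possible because the columns of counts carry no replicate number, and for the same reason other ways of testing the group comparison (DESeq2, other size factors, no filter, left-out replicates, a stricter threshold) were not run. With the shortest coding transcript as the length, the summed level per kb of the 10 genes went from 3967 to 6926, Nefl over Nefm from 1.37 to 1.24, Slc17a7 over Slc17a6 from 25.8 to 40.4 and the median of the other ganglion cell genes from 30.7 to 103. With the coding length these were 9464, 1.96, 18.1 and 52.8, Nefl over Nefh went from 2.87 to 4.87 and Pou4f1 over Pou4f2 from 2.82 to 3.82. Sncg over Nefl went from 0.917 to 1.02 with the coding length and Pou4f3 over Rbpms from 2.61 to 0.511 with the shortest transcript, so the order of these pairs depends on the length chosen. For Rbpms that shortest transcript (459 bases) is not among those counted. Pou4f3 over Rbpms was 1.58 with the coding length and 2.61 with that of the counted transcript. With the length of the counted transcript, chosen after seeing the data, Nefl over Nefm was 1.24. Without the rod genes the share of the 10 genes was 0.157% of all counts in place of 0.147%, and among genes at 10 or more the median member was above 82.4% of genes in place of 88.9%. The median of genes counted under 1 transcript was 16.0 times that of genes counted under 2 or more, and 33.8 times over genes with a curated coding transcript, both chosen after seeing the data. With 1 mean per gene, depth and the spread between mice set no limit that can be stated.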

Other observations

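The number of transcripts counted was also set beside the level in markers of other retinal cells. Over the fixed lists, 22 genes were counted under 2 or more transcripts, with a median mean normalized count of 2.79, and 13 of them were under 10. The 72 genes counted under 1 transcript had a median of 391, and 8 of them were under 10. Rlbp1, the retinaldehyde-binding protein abundant in Müller glia, had a mean normalized count of 1.39 and was counted under 2 transcripts, while Glul, the glutamine synthetase of the same cells, had 17455 under 1. Pecam1, an endothelial adhesion molecule, had 0.446 under 2 transcripts, while Cdh5 of the same cells had 99.5 under 1. Grik1, a kainate receptor of OFF bipolar cells, had 0.355 under 2 transcripts. Nrl, the factor that specifies rods, had 88.9 under 2 transcripts, of which 3.37% of windows lay in a single one, while Nr2e3 of the same cells had 3390.1 under 1. Trpm1, the channel of ON bipolar cells, and Kif5a were the highest of the 22, with 2866 and 1419 under 2 transcripts. In these, 75.2% and 53.3% of windows lay in a single transcript. Mbp (162.5 under 8 transcripts), Dst (108), Tfap2b (80.1), Gfap (52.2), Tfap2a (33.9) and Opn4 (14.3) were also above 10. Some genes of the same list thus went the other way, with Mog at 0.0699 and Pax2, an astrocyte marker, at 3.44, each under 1 transcript. S100b of the astrocyte list, also under 1 transcript, had 66.8 and lay above Gfap. In Dst only 26.7% of windows lay in a single transcript. Mapt, with 80.8% of windows in a single transcript, was nevertheless at 2.11, and Chrnb3, with 54.0%, at 0.198. The part of counting in these levels was not tested.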
